A study of Sus scrofa with 6 samples.

Results

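The transcripts of 40 autophagy and mitophagy genes were followed in porcine oocytes matured in vitro with or without heat stress. The genes were taken by symbol from the deposited expression table, in which all 40 were listed among 29861 genes. RNA was sequenced from 6 pools of oocytes in 3 groups of 2, namely untreated control, heat stress, and heat stress with nicotinamide mononucleotide (NMN), a precursor of the coenzyme NAD. The labels give the stage of every pool as GV, that is, with an intact germinal vesicle, and a time of 24 hours, whereas the methods of the study name metaphase II oocytes. The oocytes came from abattoir ovaries, the sources used here give neither the animals behind a pool nor their age, and P-values measure only the spread between pools, which may be technical. Because each pool was measured as a whole, fewer oocytes carrying a transcript and less of it in each oocyte cannot be told apart.

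Autophagy encloses cytoplasm in a double membrane and delivers it to the lysosome. The ULK complex starts the process, a class III phosphatidylinositol 3-kinase marks the membrane, ATG9, ATG2 and WIPI proteins bring lipid to it, and a ubiquitin-like conjugation system attaches ATG8 proteins (the LC3 and GABARAP subfamilies) to the growing membrane. Cargo receptors bind ATG8 proteins on one side and their cargo on the other. In mitophagy the cargo is a mitochondrion, tagged through PINK1 or through receptors that sit in its outer membrane. Oocytes hold many mitochondria and depend in their last stages on stored mRNA, since transcription has largely stopped in them.

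Values are FPKM, the number of sequenced fragments scaled to the length of the transcript and to all mapped fragments, so that levels can be compared between genes. No read counts were used here, so the depth behind a value is unknown. Summed over all genes, the FPKM of a sample was 163929 to 290136. Mitochondrially encoded genes took 61.7% to 66.4% of it in control, 62.4% and 71.6% after heat and 74.2% and 74.7% in NMN-supplemented samples, while the median FPKM of the genes tested stayed between 3.11 and 3.22. In heat-stressed replicate 1, 1 pseudogene made up 37% of the FPKM of nuclear genes. All 7 oocyte markers found in the table had a mean of at least 1 FPKM, and their summed FPKM, of which BMP15 made up 1610 to 1940, was 2130 to 2520. Between control and NMN-supplemented oocytes 4 of the 7 were nevertheless lower at an unadjusted P under 0.05 in limma, compared with 15.7% of all tested genes. Their log2 fold changes were −1.26 for ZP3 (adjusted P = 0.0210), −1.02 for ZP4 (adjusted P = 0.0302), −0.94 for GDF9 (adjusted P = 0.0219) and −0.61 for NLRP5 (adjusted P = 0.0622). With heat alone ZP3 (−0.89), GDF9 (−0.58) and ZP4 (−0.65) were already lower (limma, unadjusted P = 0.0033, 0.0085 and 0.0223). BMP15 (0.22) and DAZL (0.19) went the other way with heat, at an unadjusted P above 0.05 in limma. The direction of the lower markers is that of GABARAP and PINK1 below, and the part of the oocyte markers in those results was not tested. Of 12 cumulus and granulosa cell markers, INHBA alone reached a mean of 1 FPKM, and the other 11 summed to 0.993 to 1.83 FPKM without an order between the groups. INHBA had 16.4 and 13.2 FPKM in control, 10.2 and 6.44 after heat and 4.35 and 10.2 in NMN-supplemented samples. Its log2 fold change between NMN-supplemented and control oocytes was −1.02 (SE 0.39, unadjusted P = 0.0421, adjusted P = 0.109 in limma). All 3 leukocyte and blood markers had means below 1 FPKM. They summed to 0.387 and 0.439 FPKM in control, 0.0211 and 0.157 after heat and 0.105 and 0 in NMN-supplemented samples. The part of INHBA and of these 3 markers in the results was not tested.

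Of the 40 genes, 20 averaged 1 FPKM or more over the 6 samples and were tested, while 20 lay below that minimum, 8 of them below 0.1 FPKM. The steps of the pathway were covered unevenly. All 5 ATG8 genes passed, as did 3 of 4 cargo receptors, 3 of 4 mitophagy genes, 3 of 6 genes of the phosphatidylinositol 3-kinase complex, 2 of 5 of the ULK complex, 2 of 5 ATG9, ATG2 and WIPI genes and 2 of 10 conjugation genes. Members of one complex were also listed at very different levels. PIK3C3, the catalytic subunit of the kinase complex, was listed at 0.00369 to 0.0489 FPKM, against 3.75 to 4.64 FPKM for its partner BECN1. ATG7 and ATG10, the E1-like and an E2-like enzyme of conjugation, were listed at 0.172 to 0.203 and 0.00803 to 0.0249 FPKM. ATG16L1, whose product joins those of ATG5 and ATG12 in one complex, was listed at 8.55 to 12.4 FPKM. ATG2A was listed at 0 in every sample, and its paralog ATG2B was not. TFEB, a transcription factor of lysosomal and autophagy genes, was listed at 0 in 5 samples and at 0.00675 FPKM in heat-stressed replicate 2.

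Among the tested genes the order of mean FPKM in control oocytes began with SQSTM1 (12.8 ± 1.11), ATG16L1 (9.73 ± 1.67), GABARAP (6.83 ± 0.475) and FUNDC1 (6.68 ± 0.464, SD, n = 2 each). GABARAP and FUNDC1, with 6.49 and 7.16 against 6.35 and 7.0 FPKM, did not differ beyond their spread. In NMN-supplemented oocytes SQSTM1 (12.1 ± 1.28) and ATG16L1 (12.3 ± 0.0514) did not differ beyond their spread and GABARAP was at 1.65 ± 0.810 FPKM (SD, n = 2 each).

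**Figure D1:**
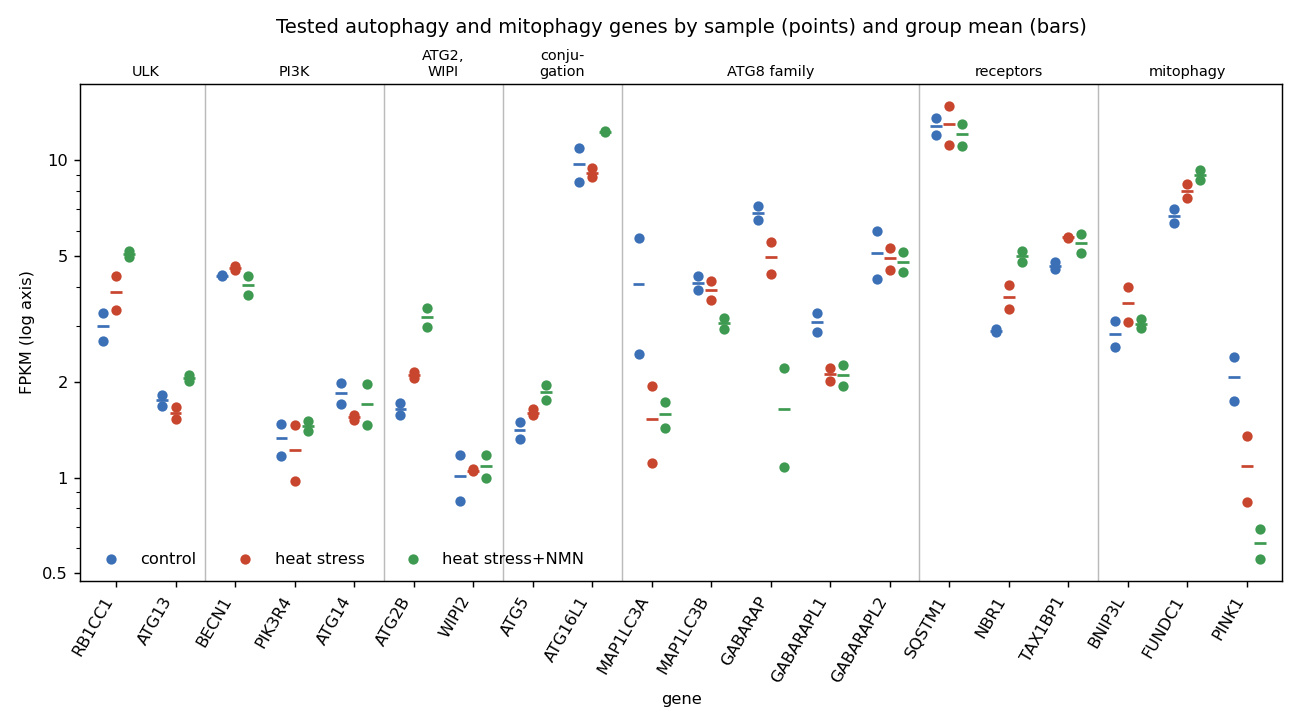
FPKM (log axis) of the 20 tested genes in each of the 6 samples, ordered by role, with points for samples and short bars for the mean of the 2 samples of a group. The 3 groups separate stepwise and upward for RB1CC1, ATG2B, ATG5, NBR1 and FUNDC1 and downward for GABARAP and PINK1, while SQSTM1 lies between 11.1 and 14.8 FPKM in all groups.

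The groups were compared in one limma model of log2(FPKM + 1) over all 4713 genes with a mean of at least 1 FPKM. A fold change below is on this scale and is smaller than the ratio of FPKM where the level is low. With heat, 3 of the 20 genes had an unadjusted P under 0.05 against control, compared with 22.8% of all tested genes. All 3 were lower, compared with 10.1% of all genes, 0 were higher, compared with 12.7%, and 0 of 20 passed after Benjamini-Hochberg adjustment (limma, 0 of all genes). The median log2 fold change was −0.01 for the 20 genes and 0.05 for all tested genes. With NMN, 4 of the 20 had an unadjusted P under 0.05 against heat stress alone, compared with 13.6% of all genes. Of these 3 were higher (7.15% of all genes) and 1 was lower (6.45%), and again 0 passed after adjustment in limma. The medians were 0.03 and 0.08. Between NMN-supplemented and control oocytes, 9 of the 20 had an unadjusted P under 0.05, compared with 41.3% of all genes, 4 of them higher (25.6% of all genes) and 5 lower (15.7%). Of these, RB1CC1, ATG2B, NBR1, GABARAP and PINK1 passed at an adjusted P under 0.05, that is 5 of 20 against 21.5% of all genes. None of these shares was tested against that of all genes. Leaving out single samples moved them: the 3 genes called with heat became 1 without control replicate 2 and 0 without heat-stressed replicate 1, the 4 called with NMN became 1 and 2 without NMN-supplemented replicates 1 and 2, and the 9 became 5 without NMN-supplemented replicate 2. The 5 genes with an adjusted P under 0.05 became 0 without any one of the 4 control and NMN-supplemented samples and stayed 5 without either heat-stressed sample, while each of the 5 kept an unadjusted P under 0.05 in limma in all these fits. Scaled to the same FPKM sum of nuclear genes, RB1CC1, ATG2B and NBR1 did not keep it (limma, unadjusted P = 0.105, 0.0540 and 0.0955). That sum was 59499 to 62744 in the control and NMN-supplemented samples and 109120 in heat-stressed replicate 1. Heat-stressed samples are not compared here, but the model takes its spread from all 6 samples. The part of heat-stressed replicate 1 in this loss was not tested. The 3 comparisons share samples, so their values are not independent of each other.

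A stepwise order, with the control, heat-stressed and NMN-supplemented samples free of overlap, was seen upward in 5 of the 20 genes and downward in 2, against 15.7% and 7.09% of all tested genes. By role, the median log2 fold change between NMN-supplemented and control oocytes was 0.38 for the 2 tested genes of the ULK complex, 0.36 for ATG2B and WIPI2, 0.29 for the 2 conjugation genes, 0.19 for the 3 cargo receptors, 0.08 for the 3 mitophagy genes, −0.07 for the 3 genes of the kinase complex and −0.40 for the 5 ATG8 genes, beside 0.11 for all tested genes.

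**Figure D2:**
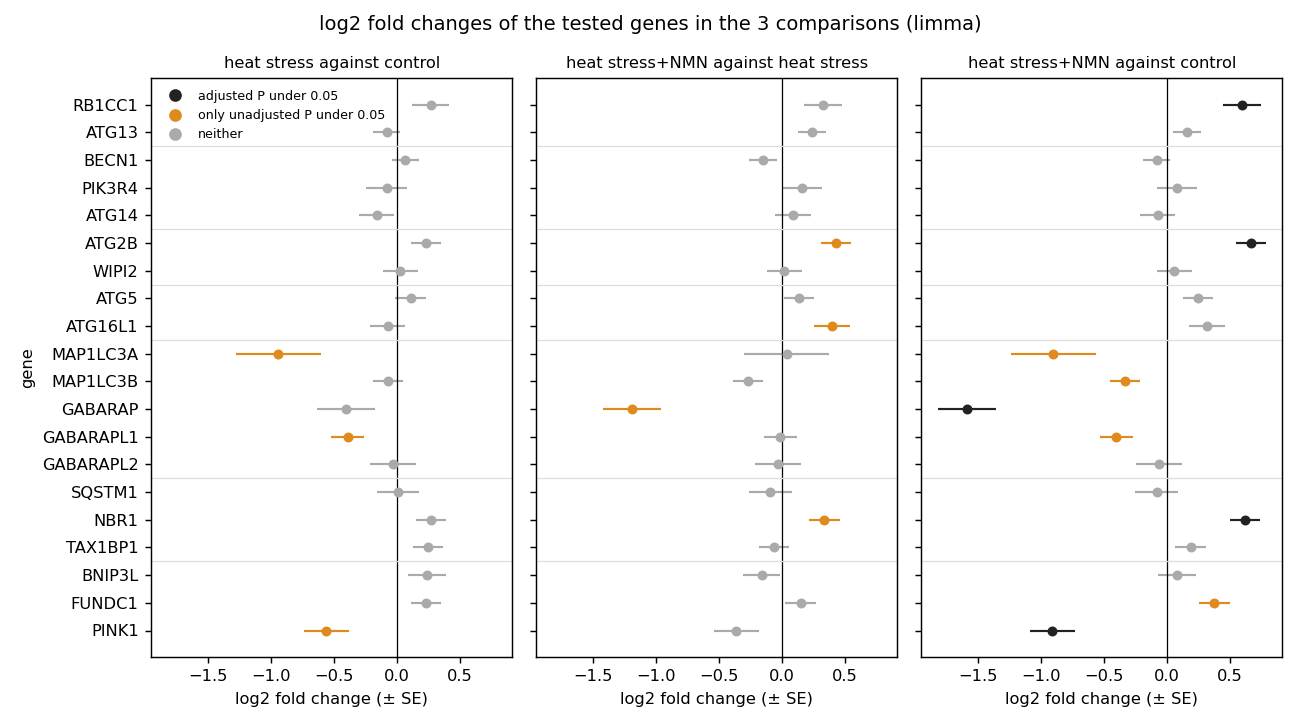
log2 fold change (± SE) of the 20 tested genes in each of the 3 comparisons, with black points for an adjusted P under 0.05, orange points for an unadjusted P under 0.05 alone and grey points for neither. Black points appear in the comparison of NMN-supplemented with control oocytes only, for RB1CC1 (0.60), ATG2B (0.67), NBR1 (0.62), GABARAP (−1.59) and PINK1 (−0.91).

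Of the ULK complex, RB1CC1 (also named FIP200), the large scaffold of the complex, rose and ATG13 did not pass. RB1CC1 lies on chromosome 4 (77593204 to 77649551, Sscrofa11.1). Its FPKM was 3.29 and 2.70 in control, 3.37 and 4.31 after heat and 5.16 and 4.95 in NMN-supplemented samples. Both NMN-supplemented samples were above all others, and control and heat-stressed samples were just apart. RB1CC1 rose between control and NMN-supplemented oocytes by a log2 fold change of 0.60 (SE 0.15, limma, adjusted P = 0.0432), in 2 of 2 samples. The steps on either side were 0.27 with heat (SE 0.15, unadjusted P = 0.118 in limma) and 0.33 with NMN (SE 0.15, unadjusted P = 0.0723 in limma). ATG13, the adaptor of the complex, was at 1.68 and 1.82, 1.53 and 1.67, and 2.02 and 2.11 FPKM in the 3 groups, and passed no comparison. The kinases ULK1 and ULK2 were below the minimum in every group, at 0.169 to 0.375 and 0.295 to 0.389 FPKM, and the listed locus of ULK2 holds 108 genes. ATG101, the partner of ATG13, was at 1.34 and 0.850 FPKM in control, 0.354 and 0.471 after heat and 0.556 and 0.738 in NMN-supplemented samples. Tested with a minimum mean of 0.1 FPKM, where 16.0% of 11651 genes had an unadjusted P under 0.05 with heat, its log2 fold change was −0.56 (SE 0.15, unadjusted P = 0.0138, adjusted P = 0.222 in limma).

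No gene of the class III phosphatidylinositol 3-kinase complex passed a comparison. BECN1, its scaffold, had 4.35 and 4.31, 4.64 and 4.52, and 4.33 and 3.75 FPKM in control, heat-stressed and NMN-supplemented samples. ATG14, which directs the complex to autophagy, had 1.99 and 1.71, 1.52 and 1.57, and 1.46 and 1.97 FPKM. PIK3R4, its regulatory subunit, had 1.48 and 1.17, 0.972 and 1.46, and 1.51 and 1.40 FPKM. Groups of these genes overlapped or lay close together, and the log2 fold changes of all 3 lay between −0.16 and 0.16 in the 3 comparisons. With length and GC trends removed (described below), ATG14 had −0.35 between NMN-supplemented and control oocytes (SE 0.13, unadjusted P = 0.0421, adjusted P = 0.131 in limma). UVRAG and AMBRA1, a subunit and a regulator of the complex, were listed at 0.115 to 0.166 and 0.0747 to 0.153 FPKM.

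Of the genes that supply membrane, ATG2B, a lipid transfer protein at the growing membrane, rose and WIPI2, which recruits the conjugation machinery, did not pass. ATG2B lies on chromosome 7 (117506298 to 117586651). It had 1.57 and 1.72 FPKM in control, 2.06 and 2.15 after heat and 3.42 and 2.98 in NMN-supplemented samples. The 3 groups did not overlap. The step with NMN was larger than that with heat, a difference that was not tested. The log2 fold change was 0.67 between NMN-supplemented and control oocytes (SE 0.12, limma, adjusted P = 0.0253), 0.43 with NMN against heat stress alone (SE 0.12, unadjusted P = 0.0122, adjusted P = 0.290 in limma, not called without NMN-supplemented replicate 1) and 0.23 with heat (SE 0.12, limma, adjusted P = 0.297). WIPI2 had 1.18 and 0.846, 1.06 and 1.05, and 1.0 and 1.18 FPKM in the 3 groups, which overlapped, with log2 fold changes of 0.02 to 0.06. ATG9A, the membrane protein of the seed vesicles, was listed at 0 to 0.180 FPKM and WIPI1 at 0 to 0.0269 FPKM.

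Of the 10 conjugation genes, ATG5 and ATG16L1, whose products join ATG12 in one complex, were tested. ATG16L1 (chromosome 15, 133651294 to 133693472) had 10.9 and 8.55 FPKM in control, 8.84 and 9.44 after heat and 12.4 and 12.3 in NMN-supplemented samples. The NMN-supplemented samples were thus the highest, while control and heat-stressed samples overlapped. Its log2 fold change with NMN was 0.40 (SE 0.14, unadjusted P = 0.0326, adjusted P = 0.352 in limma), and the unadjusted P rose above 0.05 when any single heat-stressed or NMN-supplemented sample was left out, to at most 0.120 over all alternatives. ATG5 was ordered upward, with 1.32 and 1.5, 1.64 and 1.57, and 1.96 and 1.76 FPKM, but passed no comparison (log2 fold change of 0.25 between NMN-supplemented and control oocytes, SE 0.12, limma, adjusted P = 0.171). ATG12, the ubiquitin-like partner of ATG5, was below the minimum, at 0.498 and 0.255 FPKM in control, 0.889 and 0.707 after heat and 0.843 and 1.21 in NMN-supplemented samples. Every heated sample was above both controls. With a minimum mean of 0.1 FPKM, 27.8% of 11651 genes had an unadjusted P under 0.05 between NMN-supplemented and control oocytes (limma). In this fit the log2 fold change of ATG12 was 0.56 (SE 0.15, unadjusted P = 0.014, adjusted P = 0.0974 in limma). ATG4A, a protease that trims ATG8 proteins, had 0.805 and 1.08 FPKM in control, 0.433 and 0.715 after heat and 0.383 and 0.423 in NMN-supplemented samples. In the same fit its log2 fold change between NMN-supplemented and control oocytes was −0.46 (SE 0.13, unadjusted P = 0.0173, adjusted P = 0.107 in limma). The locus listed for ATG12, for ATG4A and for ATG5 holds a second gene. The remaining 6 conjugation genes (ATG3, ATG4B, ATG4C, ATG4D, ATG7 and ATG10) were listed at 0.00166 to 0.996 FPKM.

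Of the 5 ATG8 genes, 4 were lower in NMN-supplemented than in control oocytes at an unadjusted P under 0.05, compared with 15.7% of all tested genes called lower, and GABARAPL2 did not pass. Summed over the 5 genes, the family's FPKM was 20.4 and 26.0 in control, 18.1 and 16.7 after heat and 14.5 and 11.8 in NMN-supplemented samples, so the groups did not overlap. With length and GC trends removed, GABARAP and MAP1LC3B were the 2 of the 5 still called in that comparison, and GABARAPL2 had a log2 fold change of 0.10. GABARAP, which acts late in autophagosome formation and fusion, lies on chromosome 12 (52596130 to 52598166). It had 6.49 and 7.16 FPKM in control, 5.53 and 4.37 after heat and 2.22 and 1.08 in NMN-supplemented samples. The samples of each group lay below those of the one before, and in NMN-supplemented oocytes the mean was 0.242 times that in control and 0.333 times that in heat-stressed oocytes. The log2 fold change was −1.59 between NMN-supplemented and control oocytes (SE 0.23, limma, adjusted P = 0.0210), −1.19 with NMN against heat stress alone (SE 0.23, unadjusted P = 0.00281, adjusted P = 0.222 in limma) and −0.40 with heat (SE 0.23, unadjusted P = 0.143 in limma). Its share of the family's FPKM was 31.8% and 27.6% in control, 30.6% and 26.2% after heat and 15.3% and 9.12% in NMN-supplemented samples.

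Of the other ATG8 genes, none passed after adjustment. MAP1LC3A, which encodes LC3A, was lower with heat, at 2.46 and 5.67 FPKM in control, 1.11 and 1.95 after heat and 1.73 and 1.43 in NMN-supplemented samples. All heated samples were below both controls, but the controls themselves differed by more than the heated samples did. Its log2 fold change with heat was −0.94 (SE 0.34, unadjusted P = 0.0347, adjusted P = 0.195 in limma), and the unadjusted P rose above 0.05 without control replicate 2, heat-stressed replicate 1 or either NMN-supplemented sample. GABARAPL1 had 3.31 and 2.87 FPKM in control, 2.02 and 2.21 after heat and 2.26 and 1.94 in NMN-supplemented samples. It was lower with heat by a log2 fold change of −0.39 (SE 0.13, unadjusted P = 0.0240, adjusted P = 0.180 in limma), a call that ended without control replicate 1 or heat-stressed replicate 1. With NMN its log2 fold change was −0.01 (SE 0.13). MAP1LC3B, which encodes LC3B, the usual marker of autophagosomes, had 3.91 and 4.31, 4.15 and 3.63, and 3.18 and 2.94 FPKM. Its log2 fold change between NMN-supplemented and control oocytes was −0.33 (SE 0.12, unadjusted P = 0.0361, adjusted P = 0.0980 in limma), not called without any one of the 4 samples compared. In the same comparison MAP1LC3A had −0.90 (SE 0.34, unadjusted P = 0.0410 in limma) and GABARAPL1 −0.40 (SE 0.13, unadjusted P = 0.0220 in limma). The first was not called without control replicate 2 or either NMN-supplemented sample, and the second not without control replicate 1 or NMN-supplemented replicate 2. With length and GC trends removed they were −0.37 (unadjusted P = 0.305 in limma) and −0.17 (unadjusted P = 0.255 in limma). GABARAPL2 passed no comparison, at 4.22 and 5.97, 5.29 and 4.52, and 5.15 and 4.43 FPKM, and its groups overlapped (log2 fold change of −0.06 between NMN-supplemented and control oocytes, SE 0.18). Its share of the family's FPKM was 20.7% and 23.0% in control and 35.4% and 37.5% in NMN-supplemented samples.

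**Figure D3:**
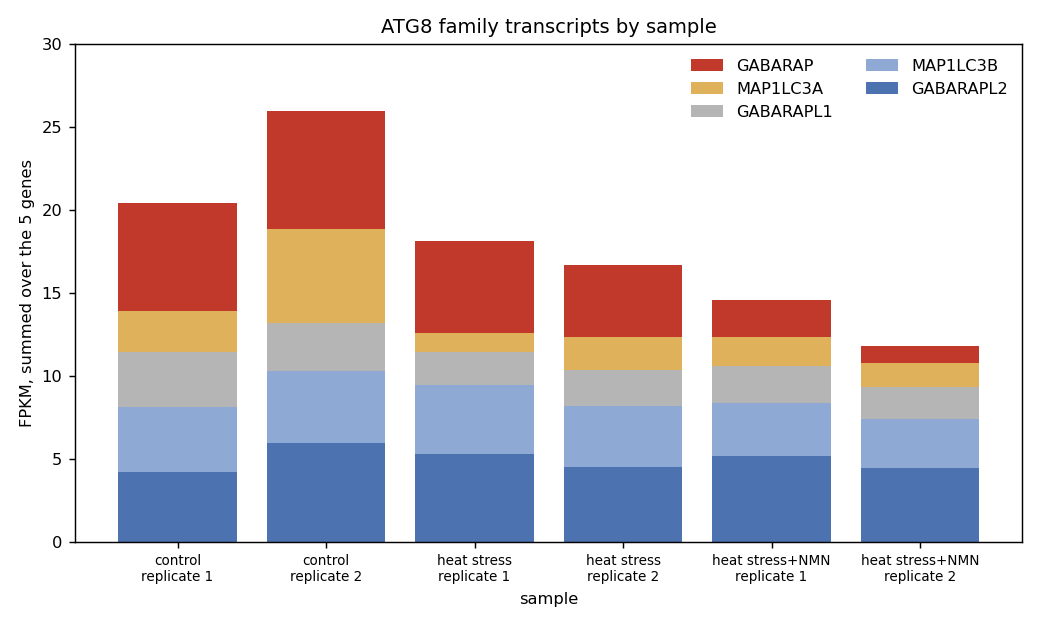
FPKM of the 5 ATG8 genes, stacked, in each of the 6 samples. The stacks decrease from 20.4 and 26.0 FPKM in control to 14.5 and 11.8 FPKM in NMN-supplemented oocytes, and the GABARAP layer at the top shrinks from 7.16 to 1.08 FPKM between control replicate 2 and NMN-supplemented replicate 2.

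The cargo receptors did not move together. SQSTM1 (also named p62), which binds ubiquitinated cargo, was the highest of the 40 genes in control oocytes and had 12.0 and 13.6 FPKM there, 14.8 and 11.2 after heat and 13 and 11.1 in NMN-supplemented samples. The groups overlapped, with log2 fold changes of 0.01, −0.09 and −0.08 in the 3 comparisons (SE 0.17 each). NBR1, a receptor of similar architecture, lies on chromosome 12 (19755733 to 19789014). It had 2.87 and 2.93 FPKM in control, 3.40 and 4.05 after heat and 5.19 and 4.79 in NMN-supplemented samples. The groups did not overlap, and NBR1 rose by a log2 fold change of 0.62 between control and NMN-supplemented oocytes (SE 0.12, limma, adjusted P = 0.0294), of which 0.27 lay in the step with heat (SE 0.12, unadjusted P = 0.0710 in limma) and 0.34 in that with NMN (SE 0.12, unadjusted P = 0.0333, adjusted P = 0.352 in limma). The NMN step lost its unadjusted call without heat-stressed replicate 1 or either NMN-supplemented sample. Within a sample, the ratio of NBR1 to SQSTM1 FPKM was 0.239 and 0.216 in control, 0.23 and 0.362 after heat and 0.401 and 0.430 in NMN-supplemented samples. Heat-stressed replicate 1 thus lay between the controls. TAX1BP1 had 4.54 and 4.78 FPKM in control, 5.71 and 5.75 after heat and 5.10 and 5.87 in NMN-supplemented samples (log2 fold change with heat of 0.25, SE 0.12, unadjusted P = 0.0762 in limma). OPTN, a receptor in PINK1-dependent mitophagy, was listed at 0.00571 to 0.0428 FPKM. SQSTM1 and NBR1 each share their listed locus with a gene on the other strand, and the strand of the libraries is not given in the sources used here, so reads of the pair cannot be told apart.

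Of the mitophagy genes, PINK1 fell between control and NMN-supplemented oocytes, and FUNDC1 and BNIP3L did not pass after adjustment. BNIP3 was fitted only with a lower minimum, where neither BNIP3 nor PINK1 passed after adjustment. PINK1, the kinase that builds up on depolarized mitochondria, lies on chromosome 6 (78863195 to 78884663). It had 1.74 and 2.40 FPKM in control, 0.837 and 1.35 after heat and 0.555 and 0.686 in NMN-supplemented samples. The groups did not overlap, and in NMN-supplemented oocytes the mean was 0.300 times that in control. PINK1 fell by 0.91 on the log2 scale between control and NMN-supplemented oocytes (SE 0.18, limma, adjusted P = 0.0294). With heat alone its log2 fold change was −0.56 (SE 0.18, unadjusted P = 0.0253, adjusted P = 0.183 in limma), which did not keep its unadjusted call without control replicate 2 or heat-stressed replicate 1, and with NMN it was −0.36 (SE 0.18, unadjusted P = 0.102 in limma).

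BNIP3, an outer membrane receptor known as a target of hypoxia signalling, was below the minimum with a mean of 0.704 FPKM. It had 1.02 and 1.42 FPKM in control, 0.412 and 0.662 after heat and 0.307 and 0.395 in NMN-supplemented samples, so the order was that of PINK1. Tested with a minimum mean of 0.1 FPKM, where 27.8% of 11651 genes had an unadjusted P under 0.05 between NMN-supplemented and control oocytes, BNIP3 had a log2 fold change of −0.71 (SE 0.14, unadjusted P = 0.00399, adjusted P = 0.0655 in limma). In the same fit and comparison PINK1 had −0.91 (SE 0.18, unadjusted P = 0.00367, adjusted P = 0.064 in limma), so neither passed after adjustment there. With heat BNIP3 had −0.53 (SE 0.14, unadjusted P = 0.0132, adjusted P = 0.219 in limma). Its paralog BNIP3L (also named NIX) had 2.58 and 3.11, 3.09 and 3.98, and 3.15 and 2.95 FPKM, with overlap between all groups, and passed no comparison. FUNDC1, another receptor of the outer membrane, had 6.35 and 7.0 FPKM in control, 8.40 and 7.60 after heat and 9.29 and 8.70 in NMN-supplemented samples, an order without overlap. It was higher in NMN-supplemented than in control oocytes by 0.38 (SE 0.12, unadjusted P = 0.0189, adjusted P = 0.0677 in limma), a call that did not hold without control replicate 1 or either NMN-supplemented sample, with length and GC trends removed (0.24, unadjusted P = 0.0571 in limma) or at the same nuclear FPKM sum (0.40, unadjusted P = 0.328 in limma). The ratio of FUNDC1 to PINK1 FPKM within a sample was 3.65 and 2.92 in control, 10 and 5.64 after heat and 16.7 and 12.7 in NMN-supplemented samples. That it set the groups apart follows from the opposite orders of FUNDC1 and PINK1, each without overlap, and adds no further result.

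A second list of 46 pathway genes outside the 40 was chosen by role, of which 45 were in the table and 11 were tested. With heat 4 of the 11 had an unadjusted P under 0.05 (22.8% of all tested genes), with NMN 1 (13.6%), and between NMN-supplemented and control oocytes 3 (41.3%). All of these were lower, beside 10.1%, 6.45% and 15.7% of all genes called lower. TFE3, a relative of TFEB, was at 5.33 and 4.16 FPKM in control, 2.26 and 2.63 after heat and 2.91 and 2.69 in NMN-supplemented samples. It fell by 0.59 on the log2 scale between control and NMN-supplemented oocytes (SE 0.15, limma, adjusted P = 0.0434). FKBP8 had 1.44 and 2.20, 0.622 and 0.655, and 0.755 and 0.471 FPKM in the 3 groups. FKBP8 and PHB2, a receptor of the outer and one of the inner mitochondrial membrane, fell as well, by 0.80 (SE 0.18, limma, adjusted P = 0.0367) and 0.93 (SE 0.11, limma, adjusted P = 0.0210). PHB2 had 5.80 and 6.15, 4.26 and 4.16, and 2.49 and 2.82 FPKM in the 3 groups, the same order as GABARAP and PINK1. With heat, TFE3 had a log2 fold change of −0.73 (SE 0.15, unadjusted P = 0.00301, adjusted P = 0.118 in limma). FKBP8 had −0.77 (SE 0.18, unadjusted P = 0.00631, adjusted P = 0.127 in limma) and PHB2 −0.42 (SE 0.11, unadjusted P = 0.011, adjusted P = 0.142 in limma). With NMN against heat stress alone the values were 0.14 for TFE3, −0.03 for FKBP8 and −0.51 for PHB2. With length and GC trends removed (described below), the changes between control and NMN-supplemented oocytes were −0.42 for TFE3 (limma, adjusted P = 0.103), −0.44 for FKBP8 (limma, adjusted P = 0.137) and −0.50 for PHB2 (limma, adjusted P = 0.0503). Leaving out any one of the 6 samples ended the adjusted calls of TFE3 and FKBP8, and leaving out control replicate 2 or either NMN-supplemented sample ended that of PHB2, while the unadjusted P stayed under 0.05 in all these limma fits. WDR45B, a WIPI relative, was lower with heat (−0.41, SE 0.16, unadjusted P = 0.0464, adjusted P = 0.217 in limma) with 18.3 and 16.4 FPKM in control, 14.4 and 11.2 after heat and 17.8 and 15.1 in NMN-supplemented samples. Its heat call held without heat-stressed replicate 1 but not without any other single sample, and with the trends removed the log2 fold change was −0.15 (unadjusted P = 0.327 in limma). All 13 genes of autophagosome fusion in this list were below the minimum, 9 of them under 0.1 FPKM.

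Fold changes were related to the length and base composition of the transcripts. The annotated transcripts of RB1CC1, ATG2B and NBR1 measure 7294, 8530 and 5518 nt, whereas those of GABARAP and MAP1LC3A measure 889 and 960 nt and that of PINK1 3090 nt with a GC content of 59.5%. Across the 20 genes, measured in the same 4 libraries, the Spearman correlation of the log2 fold change between NMN-supplemented and control oocytes with transcript length was 0.73, and with GC content it was −0.42. Across 4452 tested genes with an annotated transcript these were 0.42 and −0.44. When each sample's trends on length and GC content were removed, the log2 fold change of GABARAP between NMN-supplemented and control oocytes was −1.18 (SE 0.20, limma, adjusted P = 0.0306). The others no longer passed, with −0.71 for PINK1 (adjusted P = 0.0605), 0.38 for RB1CC1 (adjusted P = 0.0902), 0.38 for NBR1 (adjusted P = 0.0931) and 0.37 for ATG2B (adjusted P = 0.128), each still with an unadjusted P under 0.05 in limma. Of all 4452 genes in this limma fit, 725 had an unadjusted P under 0.05 with heat, 603 with NMN and 1543 between NMN-supplemented and control oocytes. In the main limma fit these were 1074, 641 and 1948 of 4713. Of the 3 among the 20 genes that were lower with heat, 0 kept an unadjusted P under 0.05 in this limma fit, as against 3 without it. Their log2 fold changes with heat stayed negative, at −0.58 for MAP1LC3A (from −0.94), −0.23 for GABARAPL1 (from −0.39) and −0.35 for PINK1 (from −0.56). Of the second list, TFE3 (−0.54, unadjusted P = 0.00942) and FKBP8 (−0.50, unadjusted P = 0.029) kept their heat calls in this limma fit. PHB2 (−0.10, unadjusted P = 0.422) and WDR45B (−0.15, unadjusted P = 0.327) did not keep theirs in it (limma).

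**Figure D4:**
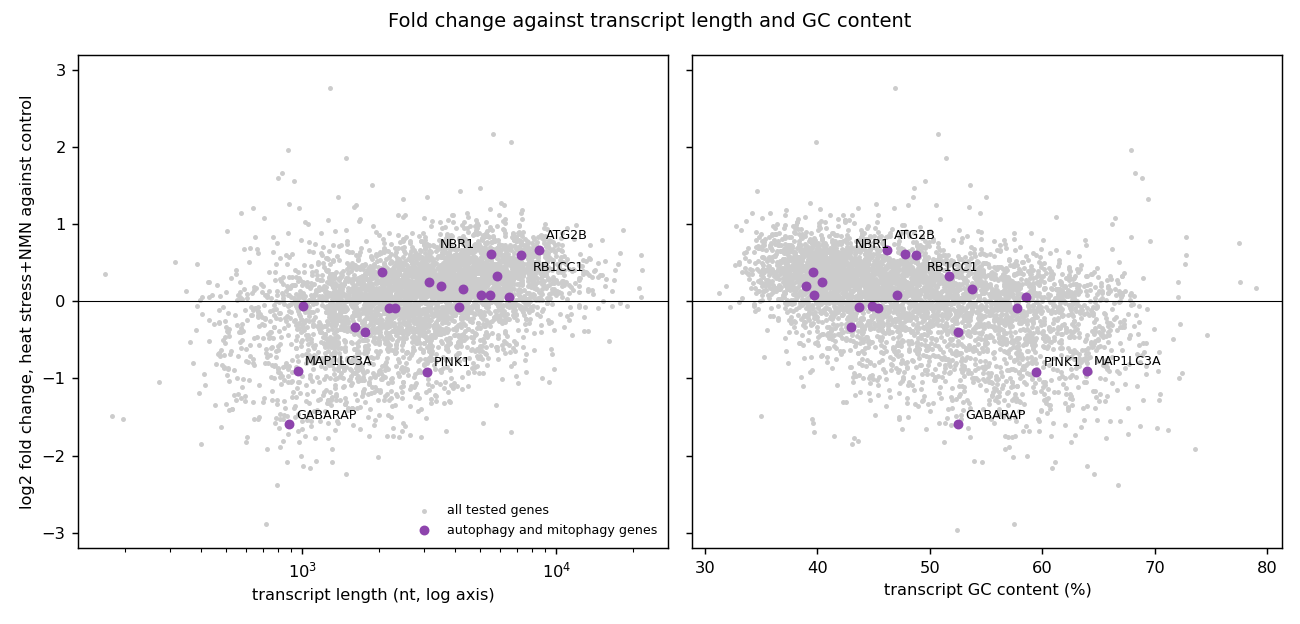
log2 fold change between NMN-supplemented and control oocytes against transcript length (nt, log axis) and GC content (%), with grey points for all tested genes with an annotated transcript and purple points for the 20 autophagy and mitophagy genes. GABARAP (889 nt) lies at the lower left of the length panel and ATG2B (8530 nt) at the upper right, and the grey points also slope upward with length.

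Stored oocyte mRNA is regulated through its 3′ end, where the polyadenylation signal AATAAA and, in a part of the transcripts, a cytoplasmic polyadenylation element lie. The 3′ ends of 5 genes called in a comparison, and of those with such an element, are therefore shown from the Sscrofa11.1 genome and the RefSeq annotation, as the sense strand with the motif in capitals. AATAAA was searched in the last 40 nt of the longest annotated transcript and was present in 13 of the 20 tested genes, against 65.6% of 3853 tested genes with a 3′ untranslated region of at least 100 nt. GABARAP (chr12:52596131-52596160, minus strand) and MAP1LC3A (chr17:37959476-37959505, plus strand), which were lower, and RB1CC1 (chr4:77649093-77649122, plus strand), NBR1 (chr12:19755733-19755762, minus strand) and FUNDC1 (chrX:39726194-39726223, minus strand), which were higher, all had it.
GABARAP: AATAAAgaggaaaccaccaagctgaactgg
MAP1LC3A: tgcagAATAAAgattgctcaggcctgcctg
RB1CC1: tttaaaacAATAAAgatttgaacctgtaaa
NBR1: ggtgaAATAAAggttctttgaaactctttc
FUNDC1: atgctaAATAAAactccaactttctcaata

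The signal thus stood in genes of both directions. For PINK1 and ATG2B these 6 letters were not found in the last 40 nt of the annotated transcript. The cytoplasmic polyadenylation element was searched as TTTTAT or TTTTAAT, on the sense strand, in the last 100 nt of transcripts with a 3′ untranslated region of at least that length. Neither motif contains the other. It was present in 4 of the 20 tested genes against 25.7% of the 3853 genes, namely in ATG5 (chr1:72403428-72403457, minus strand), ATG14 (chr1:184701047-184701076, minus strand), ATG16L1 (chr15:133693390-133693419, plus strand) and WIPI2 (chr3:3830916-3830945, plus strand).
ATG5: atttttgtttctTTTTATttgaatatttaa
ATG14: atttttctaaacTTTTATtgtattactaca
ATG16L1: ccagggcacatcTTTTATttatttaattac
WIPI2: ccactttccccgTTTTATtttgttaattaa

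Of these 4, ATG16L1 was higher with NMN at an unadjusted P under 0.05, and ATG5, ATG14 and WIPI2 passed no comparison. Of the 9 genes with an unadjusted P under 0.05 between NMN-supplemented and control oocytes, 0 had the element in this window. Among all tested genes it was present in 32.3% of those called higher and 11.5% of those called lower in that comparison.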

How the data were processed

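By the account in the methods, reads were trimmed (cutadapt) and mapped by the authors to susScr11 (tophat2), and the submitters' processing notes name Cufflinks 2.2.1, Cuffnorm and Cuffdiff. The authors deposited FPKM per gene for each of 6 samples. Their own fold changes, p-values and q-values and both lists of their differentially expressed genes were not used. Groups were taken from the treatment labels. The series' design text names a different sequencer from the methods.

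The FPKM were log2-transformed after adding 1. Genes averaging 1 FPKM or more were fitted in one limma 3.58.1 model (R 4.3.3) of the 3 groups with a variance trend, and P-values (two-sided) were adjusted by the Benjamini-Hochberg method over 4713 genes. With 2 samples per group, an exact permutation test of one gene cannot give a P below 0.333. The 40 genes, the second list and the tests were chosen with earlier results of these data known. Values are given for each gene with a mean of at least 1 FPKM and, of the second list, for those with an unadjusted P under 0.05. BNIP3, ATG12, ATG4A and ATG101 were added after their values were seen, as were the within-sample ratios. Listed loci equalled the annotated gene for 99.7% of genes alone in their locus, so transcripts, lengths and 3′ ends were read from Sscrofa11.1. The fit was tested on simulated data with changes added to the heat-stressed samples. Of 4513 unchanged genes, 6.09% had an unadjusted P under 0.05 (limma). Of 100 genes with a log2 change of 0.5, 63 had an unadjusted and 1 an adjusted P under 0.05 (limma). For 100 genes with a change of 1 these were 91 and 60. In this setting a change of 0.5 thus seldom passed after adjustment. The other steps ran in Python 3.11.15 (pandas 2.3.3 and scipy 1.17.1), and plots were drawn with matplotlib 3.10.9. Alternatives were other pseudocounts, minimum FPKM, scalings and models, the replicate number as a block and leaving out each sample. The fit without length and GC trends was chosen after seeing the data.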

Additional observations from a re-analysis of the deposited data

How the results depend on the processing

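Over 258 alternative values for the 16 calls of single genes (a gene in a comparison at an unadjusted P under 0.05), 205 kept the call, 53 lost it and 0 changed sign. GABARAP with NMN against heat stress (highest unadjusted P = 0.0185 in limma) and against control (highest unadjusted P = 0.00716) and PINK1 with NMN against control (highest unadjusted P = 0.0212) kept it under every alternative run for them. With 2 samples a group and no read counts, small differences of weakly expressed genes cannot be resolved. The causes of the shifts below were not tested, except that other minimum values change the number of genes tested.

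For heat stress against control, the 1074 genes with an unadjusted P under 0.05 became 1865 at a minimum of 0.1 FPKM, 468 at 5 FPKM, 2388 without a filter and 562 at the same nuclear FPKM sum, which 1 pseudogene raises in heat-stressed replicate 1. They were 648 (without control replicate 2) to 1015 without single samples. The 3 autophagy genes became 6, 0 and 6 with these minimum values, 0 without length and GC trends, and 0 to 3 without single samples. For NMN against heat stress, the 641 genes became 1161, 266, 1557 and 269, and 327 (without NMN-supplemented replicate 1) to 701 without single samples, falling to 418 without heat-stressed replicate 1 and 383 without NMN-supplemented replicate 2. The 4 autophagy genes became 1 at 5 FPKM, 1 at the same nuclear sum, 2 without length and GC trends, and 1 to 4 without single samples. For NMN against control, the 1948 genes became 3236, 791, 3700 and 789, and 1233 (without NMN-supplemented replicate 1) to 1941 without single samples. The 9 autophagy genes became 1 at 5 FPKM, 3 at the same nuclear sum, and 5 to 9 without single samples. The 5 with an adjusted P under 0.05 became 0 at 0.1 FPKM, 0 without a filter, 1 at the same nuclear sum and 1 without length and GC trends. At 5 FPKM only 4 autophagy genes were tested, in place of 20, and these 5 were not among them. Of the 16 calls of single genes, 2 were of genes tested at 5 FPKM, and both were kept. The lower counts of autophagy genes at 5 FPKM are thus not calls that failed. With the other comparisons 0 had an adjusted P under 0.05 in any limma fit, where 3 and 4 had an unadjusted P under 0.05.

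With the replicate number as a block (replicate block), 937, 527 and 1815 of all genes and 3, 3 and 8 autophagy genes had an unadjusted P under 0.05 in the 3 comparisons, and 2 in place of 5 had an adjusted P under 0.05, GABARAP and PINK1. Of the second list, TFE3 (adjusted P = 0.0741) and FKBP8 (adjusted P = 0.0668) no longer passed with the block. Deviations of same-numbered samples correlated at −0.032, 0.0081 and −0.014. These values cannot tell whether same-numbered pools shared a day or a batch, and the labels used here do not say.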
